A study of Mus musculus with 18 samples.

Results

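Neutrophils carry the proteins they use against microbes in granules that are filled one after another while the cell matures in the bone marrow. Primary (azurophilic) granules are filled first, secondary (specific) granules next and tertiary (gelatinase) granules last, and each class holds the proteins whose genes are transcribed at that stage. The messages for primary and secondary granule proteins are therefore mostly those of marrow precursors, while a circulating neutrophil retains some of the later ones.

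Transcripts of 10 such genes were followed in whole blood from 18 mice: Mpo and Elane (primary), Ltf, Camp, Ngp, Lcn2 and Mmp8 (secondary), Mmp9 (tertiary), and Pglyrp1 and Cd177, which were left without a class. They were chosen by name, and 12 of the 41174 different probes on the array carried these names, with Elane under its older name Ela2. The array held 20477 named genes, of which 13314 were tested because 5 or more of the 18 arrays had read a probe of theirs well above background, and 9 of the 10 granule genes were among them. The mice were male C57BL/6N animals, 8 to 12 weeks old, given 0 Gy (sham treatment, n = 7), 2 Gy (n = 5) or 8 Gy (n = 6) of gamma rays from a cesium source, and blood was taken from the heart 6 hours later. RNA came from the RiboPure kit for 5 of the 0 Gy mice, 4 of the 2 Gy mice and 6 of the 8 Gy mice, and from the PAXgene kit for the others. Globin RNA was removed, and each RNA was labelled with Cy3 and hybridised to 1 array. The comparison across doses asks how granule transcripts in blood differ soon after irradiation. In whole blood, a larger share of neutrophils and more of a transcript per neutrophil cannot be told apart.

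Levels are log2 signals after subtraction of log2 of the array's 75th percentile, so that 0 stands for that percentile. A level compares arrays for 1 probe and does not rank genes against each other. Irradiated samples tended to be dimmer, with a 75th percentile of 49.2 to 198 in the 2 Gy group and 61.3 to 247 in the 8 Gy group against 148 to 443 in sham-treated mice. There were 8 slides and 7 days of scanning. The p53 target Cdkn1a was chosen here to set the arrays against their dose labels. It spanned -4.14 to 1.17 in sham-treated mice, -0.37 to 1.54 after 2 Gy and 1.11 to 2.57 after 8 Gy. Its value of 1.17 belonged to 0 Gy replicate 5, and the other 0 Gy arrays reached at most -1.52. Results that rest on 0 Gy replicate 5 are therefore given with and without it.

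The probes decide which part of each message was measured, and those for the transcripts on which the class comparison turns are shown here in lower case, as deposited. Positions are those of the files, on mouse build mm7, and the 2 Ltf probes lie in different parts of the gene. The secondary granule probes shown were at chr9:110738071-110738130 and chr9:110733462-110736512 (Ltf), chr9:109544107-109544166 (Camp), chr9:110119702-110120250 (Ngp) and chr2:32392828-32393072 (Lcn2). The tertiary granule probe shown, which stood for its gene, was at chr2:164695457-164695516 (Mmp9). The Lcn2 and Ngp probes and the second Ltf probe are 60 bases long but span more of the genome than that, so they cross exon junctions.
Ltf, first probe: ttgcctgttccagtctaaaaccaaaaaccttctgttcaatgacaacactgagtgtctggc
Ltf, second probe: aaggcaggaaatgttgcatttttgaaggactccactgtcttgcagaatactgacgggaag
Camp: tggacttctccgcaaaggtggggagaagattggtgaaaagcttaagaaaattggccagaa
Ngp: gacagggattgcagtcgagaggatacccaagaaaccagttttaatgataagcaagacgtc
Lcn2: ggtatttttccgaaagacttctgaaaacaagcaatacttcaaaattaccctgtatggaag
Mmp9: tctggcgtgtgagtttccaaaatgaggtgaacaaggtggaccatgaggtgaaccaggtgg

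At 8 Gy, 5 of the 9 granule genes tested were higher than at 0 Gy and none was lower. The secondary granule genes Mmp8 and Lcn2 rose 10.3-fold and 9.38-fold, the tertiary granule gene Mmp9 4.89-fold, and Pglyrp1 and Cd177 3.64-fold and 2.94-fold. The primary granule gene Mpo and the secondary granule genes Ltf and Camp did not pass the test, and their fitted changes lay between -0.12 and 0.17 on the log2 scale. The fit was limma's linear model over all 13314 genes with dose and kit as terms, with Benjamini-Hochberg adjustment and a threshold of 0.05. Of all genes tested, 12% were called, 7.26% as higher and 4.7% as lower, and the median log2 change of all genes was 0.06. At 2 Gy no granule gene passed, and of all genes 7 (0.0526%) did, 4 higher (0.03%) and 3 lower (0.0225%).

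**Figure D1:**
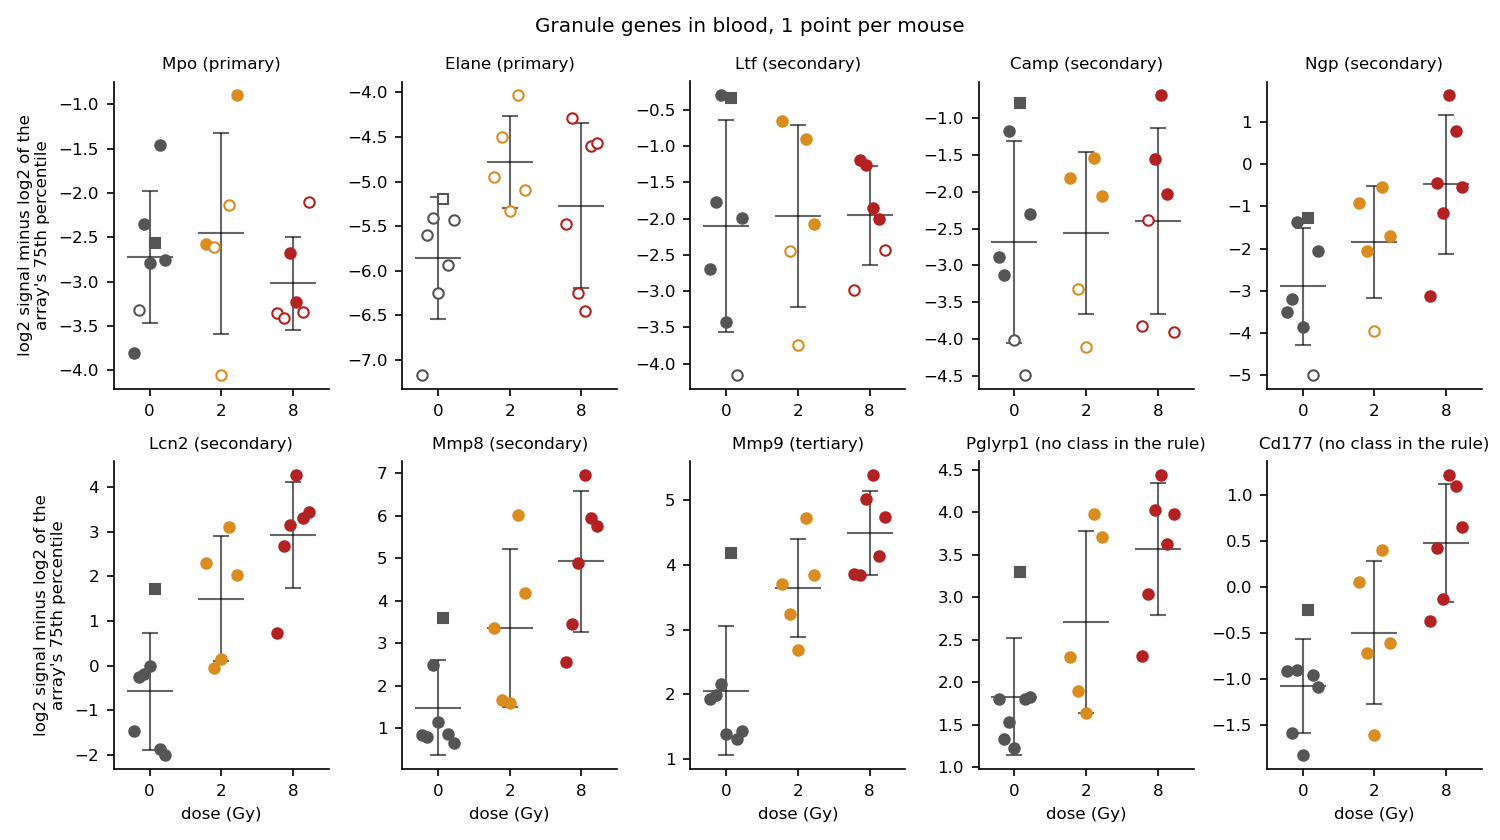
Level of each granule gene (vertical axis, log2 signal minus log2 of the array's 75th percentile) by dose (horizontal axis, Gy), with 1 point per mouse, filled where the probe was well above background, a square for 0 Gy replicate 5, and a bar for the mean and SD of each dose. Lcn2, Mmp8, Mmp9, Pglyrp1 and Cd177 sit higher at 8 Gy, with 0 Gy replicate 5 as the highest 0 Gy array in each, while at 8 Gy no array of Mpo or Ltf and 1 array of Camp lies above every 0 Gy array.

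Of the primary granule genes, Mpo encodes myeloperoxidase, which makes hypochlorous acid. Its level at 0 Gy was lowest at -3.81, -2.75 in the median and highest at -1.46. The 5 arrays at 2 Gy read -2.57, -2.61, -4.05, -2.14 and -0.90. At 8 Gy the range ran from -3.41 to -2.10 with a median of -3.28. The 8 Gy arrays all lay within the range of the 0 Gy arrays, while at 2 Gy 1 array lay above that range and 1 below it. The highest arrays at 0 and at 2 Gy were PAXgene samples. The probe was well above background on 6 of 7, 2 of 5 and 2 of 6 arrays at 0, 2 and 8 Gy, so many irradiated values are near the floor of the measurement. With the kit in the model, the change at 8 Gy was 0.06 ± 0.38 (SE; 95% interval -0.73 to 0.85), with a limma adjusted p of 0.930. The raw means of -2.72 ± 0.74 (SD, n = 7) at 0 Gy and -3.02 ± 0.52 (SD, n = 6) at 8 Gy differ the other way, and the fit without the kit term gave -0.30. PAXgene samples read higher by 1.25 ± 0.43 (SE), which did not pass (adjusted p = 0.113). Elane, the gene of neutrophil elastase, was well above background on 0 of 18 arrays and gives no fold.

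Of the 5 secondary granule genes, Lcn2 and Mmp8 passed the test at 8 Gy and Ltf, Camp and Ngp did not. Ltf encodes lactoferrin, the iron-binding protein that defines this granule class. Its 0 Gy levels ran from -4.16 to -0.30 (median -1.99), and its 8 Gy levels from -2.98 to -1.19 (median -1.93). The 2 Gy arrays read -0.65, -2.45, -3.75, -0.90 and -2.07. No irradiated array lay above the highest 0 Gy array. The change at 8 Gy was -0.12 ± 0.64 (SE; interval -1.48 to 1.23), with a limma adjusted p of 0.916. The second Ltf probe gave -0.20 ± 0.48 (SE) in a fit over 22035 probes. The first probe was well above background on 6 of 7, 3 of 5 and 4 of 6 arrays at 0, 2 and 8 Gy.

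Camp encodes the cathelicidin precursor, an antimicrobial peptide. Its 0 Gy levels ran from -4.49 to -0.80 (median -2.89), and its 8 Gy levels from -3.90 to -0.69 (median -2.21). At 2 Gy the arrays read -1.81, -3.32, -4.11, -1.54 and -2.05. Only 8 Gy replicate 4 lay above every 0 Gy array. The change at 8 Gy was 0.17 ± 0.70 (SE; interval -1.32 to 1.66), with a limma adjusted p of 0.891. These intervals for Camp and Ltf are wide and hold changes of more than 1 log2 unit in either direction.

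Ngp encodes a cathelicidin-like neutrophil granule protein. Its 0 Gy levels lay between -5.01 and -1.27 (median -3.20), and the 2 Gy arrays read -0.92, -2.05, -3.96, -0.54 and -1.70. At 8 Gy they were between -3.12 and 1.63, with a median of -0.49. At 8 Gy, 5 of 6 arrays lay above every 0 Gy array, and replicate 1 was among the low ones. The fitted difference of 2.28 ± 0.81 (SE; interval 0.57 to 3.99) missed the threshold, with a limma adjusted p of 0.0689. It passed without 0 Gy replicate 5 (2.60, adjusted p = 0.0379) and without 8 Gy replicate 1 (2.81, adjusted p = 0.0193).

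Lcn2 encodes lipocalin 2, which binds bacterial siderophores. At 0 Gy its levels ran from -2.01 to 1.73 with a median of -0.25. The 2 Gy arrays read 2.30, -0.06, 0.14, 3.11 and 2.03, and the 8 Gy arrays ran from 0.74 to 4.27 with a median of 3.24. At 8 Gy, 5 of 6 arrays exceeded every 0 Gy array, and replicate 1 was the exception. The rise at 8 Gy was 3.23 ± 0.70 (SE), with a limma adjusted p of 0.0155. At 2 Gy the difference was 2.00 ± 0.70 (SE) and did not pass (adjusted p = 0.155).

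Mmp8 encodes neutrophil collagenase. Its 0 Gy levels ran from 0.67 to 3.60 with a median of 0.87. Values at 2 Gy were 3.35, 1.66, 1.60, 6.03 and 4.18, and those at 8 Gy ran from 2.56 to 6.95 with a median of 5.33. At 8 Gy, 4 of 6 arrays stood above every 0 Gy array. Mmp8 rose by 3.36 ± 0.85 (SE) at 8 Gy, with a limma adjusted p of 0.0261. The 2 Gy difference was 1.85 ± 0.85 (SE; adjusted p = 0.233), with the arrays spread over more than 4 log2 units and 2 of the 5 below the second highest 0 Gy array.

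Mmp9, the tertiary granule gene, encodes gelatinase B, which degrades basement membrane collagen. Levels at 0 Gy were 1.93, 2.00, 2.16, 1.39, 4.19, 1.32 and 1.43 in replicates 1 to 7. At 2 Gy they were 3.71, 3.24, 2.69, 4.73 and 3.85, and at 8 Gy they were 3.86, 3.84, 5.02, 5.38, 4.13 and 4.74. Leaving aside 0 Gy replicate 5, every irradiated array lay above every 0 Gy array at both doses. The rise at 8 Gy was 2.29 ± 0.46 (SE), with a limma adjusted p of 0.0115, and the other Mmp9 probe gave 2.43 ± 0.43 (SE). That other probe was printed at 10 spots an array, whose log2 SD within an array was 0.03 to 0.09, far below the spread between mice. At 2 Gy Mmp9 differed by 1.54 ± 0.46 (SE; adjusted p = 0.118).

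Pglyrp1 encodes a peptidoglycan recognition protein stored in granules. It lay between 1.22 and 3.29 at 0 Gy, with a median of 1.80, and between 2.31 and 4.43 at 8 Gy, with a median of 3.80. The 2 Gy arrays read 2.30, 1.90, 1.64, 3.98 and 3.71. It rose by 1.86 ± 0.47 (SE) at 8 Gy, with a limma adjusted p of 0.0256. Cd177 encodes a neutrophil surface protein that is also held in secondary granules. It lay between -1.83 and -0.26 at 0 Gy, with a median of -0.96, and between -0.37 and 1.21 at 8 Gy, with a median of 0.54. Its 2 Gy arrays read 0.05, -0.71, -1.61, 0.40 and -0.60. Cd177 rose by 1.55 ± 0.37 (SE) at 8 Gy, with a limma adjusted p of 0.0217. The differences at 2 Gy were 0.91 ± 0.47 (SE; adjusted p = 0.275) for Pglyrp1 and 0.58 ± 0.37 (SE; adjusted p = 0.368) for Cd177.

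**Figure D2:**
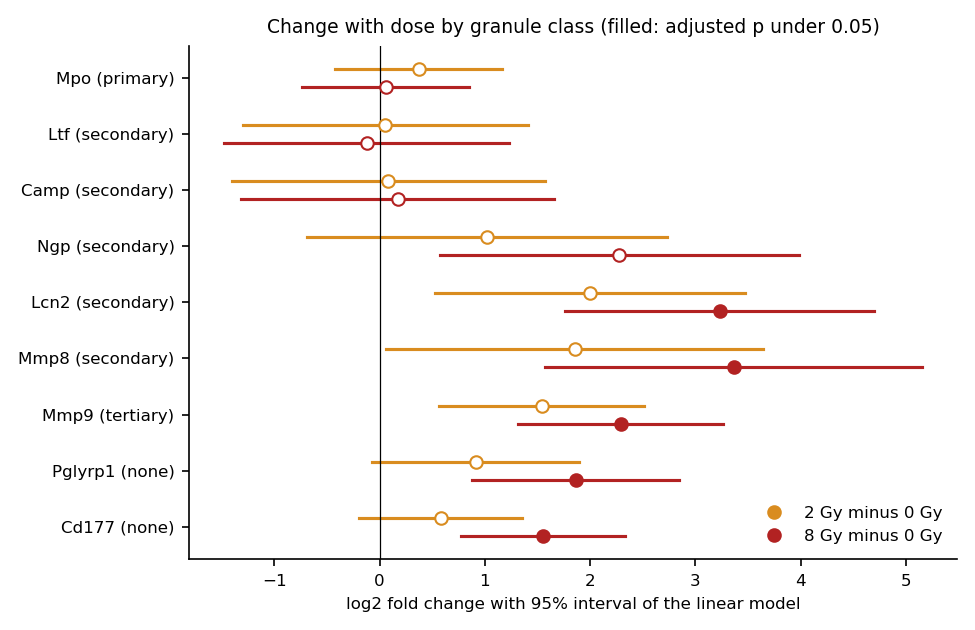
Fitted log2 fold change of each tested granule gene against 0 Gy (horizontal axis) with the 95% interval of the linear model, for 2 Gy and 8 Gy, filled where the adjusted p is under 0.05. At 8 Gy the filled points are Lcn2, Mmp8, Mmp9, Pglyrp1 and Cd177, and the intervals of Mpo, Ltf and Camp include 0.

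With 0 Gy replicate 5 left out, all 8 Gy arrays of Lcn2, Mmp8, Mmp9, Pglyrp1 and Cd177 lay above all 0 Gy arrays, a pattern that 5.56% of all genes showed. Of the 9 tested granule genes, Mmp9 alone showed it at 2 Gy too, against 1.8% of all genes. With it in, no granule gene showed such a gap, against 0.886% of all genes. Without that array, 6 granule genes were called at 8 Gy, the additional one being Ngp, and 22.4% of all genes were called. At 2 Gy, Lcn2 (2.38, adjusted p = 0.0453) and Mmp9 (1.91, adjusted p = 0.0110) were then called, against 6.51% of all genes. Between 8 and 2 Gy, limma called 0 granule genes and 0 of all genes, while 424 genes had an unadjusted p under 0.05, with Cd177 at 0.98 ± 0.39 (SE, adjusted p = 0.928). The comparisons of 2 Gy and 8 Gy with 0 Gy share the same 0 Gy arrays and are not independent of each other.

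Whether Mpo, Ltf and Mmp9, 1 gene of each class, changed unequally was tested within arrays, by taking 1 gene's log2 level minus another's. The pairs compare these genes and not whole classes, since the secondary granule genes Mmp8 and Lcn2 rose by 3.36 and 3.23 at 8 Gy and Mmp9 by 2.29. Mmp9 minus Mpo was 2.73 higher at 8 Gy than at 0 Gy (7.51 ± 0.61 against 4.78 ± 1.28, SD, n = 6 and 7), with an exact 2-sided permutation p of 0.00117 and an adjusted p of 0.00699 over 6 such tests. Mmp9 minus Ltf was 2.30 higher at 8 Gy (6.45 ± 0.83 against 4.16 ± 1.01, SD), with an exact permutation p of 0.00233 and an adjusted p of 0.00699. Ltf minus Mpo differed by 0.44 (exact permutation adjusted p = 0.750), which is less than its SD in either group. These tests had no term for the kit, and PAXgene gave 2 of the 7 arrays at 0 Gy while RiboPure gave all 6 at 8 Gy. On RiboPure arrays alone, Mmp9 minus Mpo was 2.2 higher at 8 Gy and Mmp9 minus Ltf 2.41 (exact permutation adjusted p = 0.0130 for both). Ltf minus Mpo was then -0.20. At 2 Gy, Mmp9 minus Ltf was 1.45 higher (exact permutation adjusted p = 0.0480) and Mmp9 minus Mpo 1.32 higher (adjusted p = 0.114). The call for Mmp9 minus Ltf rests on the arrays at 0 and 2 Gy alone. With 1 of these left out in turn, it held only without 0 Gy replicate 6 or 2 Gy replicate 1. With normexp background correction, which adds an offset of 50 to every signal, both differences at 8 Gy shrank and lost the call: Mmp9 minus Mpo to 1.28 (adjusted p = 0.212) and Mmp9 minus Ltf to 1.32 (adjusted p = 0.206). Since Mpo was well above background on 2 of 6 and Ltf on 4 of 6 arrays at 8 Gy, these differences rest in part on signals near the floor and are not exact sizes.

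Within the secondary class the same differences were taken against Ltf, a choice made after the values were seen, so they are described with no test. Lcn2 minus Ltf, Mmp8 minus Ltf and Ngp minus Ltf were 3.37, 3.30 and 2.28 higher at 8 Gy than at 0 Gy, and Camp minus Ltf by 0.15. At 2 Gy the differences were 1.95 for Lcn2, 1.75 for Mmp8, 0.93 for Ngp and -0.01 for Camp.

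Slides give a second view, because 5 of the 8 held arrays of 2 doses. On slide 1, with 8 Gy replicates 3 and 4 and 0 Gy replicate 1, the mean of all 9 tested genes was higher at 8 Gy, from 0.85 for Mpo to 5.17 for Lcn2. On slides 2 and 5, all 9 were higher in the mean at 2 Gy than at 0 Gy, and Mmp9 by 1.48 and 2.53. On slide 4, which held 0 Gy replicate 5 and 2 Gy replicate 3, all 9 were lower at 2 Gy, Mmp9 by -1.50 and Ltf by -3.41. On slide 7, the mean of the 3 arrays at 8 Gy was below 2 Gy replicate 4 for all 9, Mmp8 by -2.04, Mmp9 by -0.78 and Cd177 by -0.023. Single 8 Gy arrays there lay above 2 Gy replicate 4 for Ngp, Lcn2 and Cd177. Mmp9 minus Ltf was larger at the higher dose on all 5 slides, by 0.38 to 2.14, and Mmp9 minus Mpo on 4 of them, with -0.015 on slide 4. With the slide as a fixed term, no granule gene and no other gene passed in limma (1173 genes had an unadjusted p under 0.05), and the changes at 8 Gy were 3.07 for Lcn2, 2.43 for Mmp8, 1.89 for Mmp9, 1.11 for Pglyrp1 and 0.89 for Cd177. With array brightness as a covariate the fitted changes were 2.61 for Lcn2, 2.57 for Mmp8, 2.07 for Mmp9, 1.52 for Pglyrp1 and 1.22 for Cd177, and again no gene passed (1837 with an unadjusted p under 0.05).

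**Figure D3:**
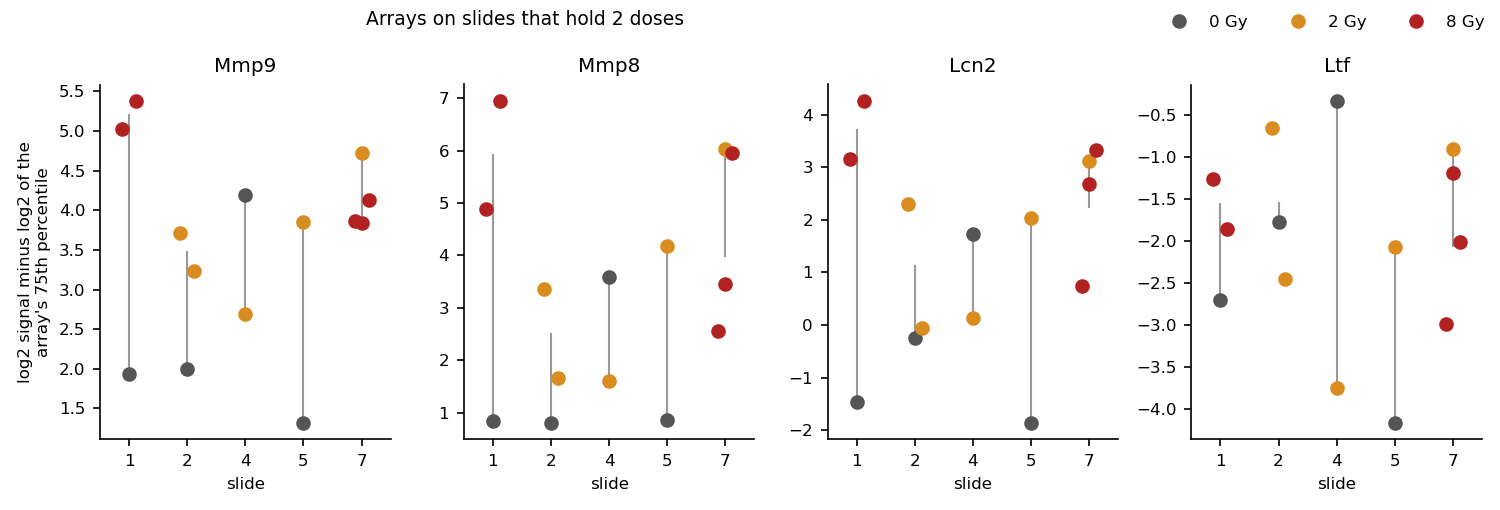
Levels of Mmp9, Mmp8, Lcn2 and Ltf (vertical axis, log2 signal minus log2 of the array's 75th percentile) on the 5 slides that held 2 doses (horizontal axis, slide number), with 1 point per array and a line between the means of the doses. Irradiated arrays are higher than the 0 Gy array for all 4 genes on slides 1 and 5, and lower on slide 4, where the 0 Gy array is replicate 5.

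Over the 18 arrays the 9 tested genes formed 36 pairs. Ltf and Camp moved together, with Pearson r = 0.86 and Spearman rho = 0.85 (permutation p 2e-05 and 5e-05, adjusted 6e-05 and 0.000129), and r was 0.80 without the 2 arrays farthest from the Ltf median. Lcn2 and Mmp8 had r = 0.94 and rho = 0.94 (permutation p 1e-05 for both, the smallest 100000 permutations can give, adjusted 4.5e-05 and 3.6e-05), and r was 0.95 without 2 arrays. For Ltf and Mmp9, r was 0.44 and rho 0.40 (permutation p 0.0694 and 0.102, adjusted 0.0999 and 0.147). With the other secondary granule genes, Mmp9 had r of 0.93 (Lcn2), 0.91 (Mmp8), 0.78 (Ngp) and 0.51 (Camp). Within the secondary class, Ltf had r of 0.65 with Ngp, 0.45 with Lcn2 and 0.42 with Mmp8. High r was thus not confined to pairs of the same class. Mpo had r between 0.01 and 0.25 with every other gene. After the mean of each dose was subtracted, r was 0.86 for Ltf and Camp, 0.88 for Lcn2 and Mmp8 and 0.67 for Ltf and Mmp9, so mice of the same dose also differed along these lines. The arrays share slides and differ in brightness, so the p-values treat as independent what may not be. The permutations also ran across the doses, so a change with dose that 2 genes share enters these p-values. The r values after subtraction carry no test.

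Among all genes tested, those whose levels were most like Mmp9's over the 18 arrays were Arap3, Cebpd and Pram1, with Pearson r of 0.99, 0.99 and 0.98. For Ltf they were Fbxl13 (0.84), Sgk1 (0.80) and Atp6v1d (0.80), other granule genes left out, and Camp exceeded all of these. These are the highest of 13314 values and carry no test.

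Other genes of the granule system were counted from lists. Of all genes tested, 7.26% were called higher at 8 Gy and 4.7% lower. A single call in a list of 6 or 7 therefore says little about that list. Of 7 other tertiary granule and secretory vesicle genes, 4 rose at 8 Gy and none fell, with a median log2 change of 1.36. They were Fpr1 (2.52 ± 0.53 SE, adjusted p = 0.0146), a formyl peptide receptor, Adam8 (2.28 ± 0.52, adjusted p = 0.0190), a membrane metalloprotease, Mmp25 (2.26 ± 0.52, adjusted p = 0.0198), another one, and Slc11a1 (1.36 ± 0.30, adjusted p = 0.0163), a divalent metal transporter. Of 6 other secondary granule genes tested, Chil1 rose (2.46 ± 0.57 SE, adjusted p = 0.0198), none fell and the median was 0.44. Haptoglobin (Hp) differed by 1.58 ± 0.57 (adjusted p = 0.0724), and the oxidase subunits Cybb and Cyba by -0.53 (adjusted p = 0.170) and 0.43 (adjusted p = 0.298). Of 6 other primary granule genes, the membrane protein Cd63 rose (1.37 ± 0.31 SE, adjusted p = 0.0194), none fell and the median was 0.25. Prtn3, the gene of proteinase 3, differed by 0.42 ± 0.36 (adjusted p = 0.436), lysozyme (Lyz2) by 0.79 ± 0.27 (adjusted p = 0.0609) and the protease-activating Ctsc by -0.74 ± 0.33 (adjusted p = 0.125). These errors and p-values are limma's, and Lyz2 turned to -0.16 under quantile normalization. Without 0 Gy replicate 5, the integrin subunit Itgb2 (0.93, limma adjusted p = 0.0307), Hp (1.90, adjusted p = 0.0273) and Lyz2 (0.94, adjusted p = 0.0223) passed too. That makes 5 tertiary and secretory, 2 secondary and 2 primary genes, while 22.4% of all genes were called in either direction without that array.

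Against 7.26% of all genes called higher at 8 Gy, 5 of 8 tested genes of granule formation rose, none fell and the median was 1.16. Among them were the transcription factors Cebpd (1.99 ± 0.47 SE, adjusted p = 0.0218), Spi1 (1.47 ± 0.37, adjusted p = 0.0252) and Cebpb (1.08 ± 0.24, adjusted p = 0.0186), and Srgn (1.23 ± 0.33, adjusted p = 0.0326), the proteoglycan that packs granule proteins. Of 10 genes of granule release, 4 rose, none fell and the median was 0.88. These were the kinase Fgr (1.38), the small GTPases Rab27a (1.33) and Rab3d (0.81), and the fusion protein Snap23 (1.04), with adjusted p between 0.0364 and 0.0487. Of 31 alternatives, Rab3d passed in 6, Fgr in 8, Snap23 in 9 and Rab27a in 13. Without 0 Gy replicate 5, 8 of the 10 genes of release rose, and of formation again 5. The share of all genes called in either direction went from 12% to 22.4% when that array was left out. Of 7 inhibitors of granule proteases and cathepsins, Stfa2 rose (2.38 ± 0.61 SE, adjusted p = 0.0273) and none fell. Slpi (1.39, adjusted p = 0.0505), Timp1 (1.04, adjusted p = 0.0590) and Serpinb1a, an elastase inhibitor (-1.44, adjusted p = 0.0543), missed the threshold. Without 0 Gy replicate 5 all 3 passed, so that 3 inhibitors rose and 1 fell. At 2 Gy no gene of these lists passed with all arrays. Without 0 Gy replicate 5, Hp, Chil1, Fpr1, Cebpd and Stfa2 rose at 2 Gy by 1.69 to 1.95 and Serpinb1a fell by 2.05, with limma adjusted p between 0.0205 and 0.0497. Among all genes, 6.51% were then called at 2 Gy.

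Markers of some cell types differed at 8 Gy too. Of 12 markers of mature neutrophils, 11 rose at 8 Gy, against 7.26% of all genes called higher, and the median log2 change of the 12 was 2.17. Their summed signal, in multiples of the 75th percentile, was 501 to 2520 in sham-treated mice and 1568 to 3925 after 8 Gy. The 2520 belonged to 0 Gy replicate 5, and the other 0 Gy arrays reached at most 1041. Of 6 tested markers of precursors and cycling cells, 0 passed in limma at 8 Gy, and their sums were 8.49 to 30.6 in sham-treated mice and 13.1 to 37.6 after 8 Gy. The precursor-defining Ms4a3 and Fcnb were not past the filter on dim probes. All 8 B cell markers fell, with a median of -3.42, against 4.7% of all genes called lower. Their sums were 36.4 to 273 in sham-treated mice and 5.42 to 69.7 after 8 Gy. The 36.4 again belonged to 0 Gy replicate 5, and the other 0 Gy arrays read 120 to 273. Of the monocyte, T cell, NK cell, erythroid, and eosinophil and basophil markers none passed, and 2 of 7 platelet markers rose. Without 0 Gy replicate 5, 7 of 7 platelet, 2 of 6 NK cell and 1 of 4 eosinophil and basophil markers rose, and none of the monocyte, T cell or erythroid markers passed. In that setting 22.4% of all genes were called in either direction. At 2 Gy no marker passed with all arrays. With 0 Gy replicate 5 left out, 8 of 12 mature neutrophil, 2 of 7 platelet and 1 of 6 NK cell markers rose at 2 Gy. All 8 B cell markers then fell, while 6.51% of all genes were called. The part of these cell types in the granule gene results was not tested.

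Promoters were read for 9 of the 10 genes from RefSeq, build GRCm38.p6, from 250 bases before to 50 after the start of each gene. Mmp9 had no entry there and was not searched. The motif of C/EBP factors, the family of Cebpd and Cebpb, was searched as TTNNGCAA on both strands. It was found in the promoters of Lcn2, Mmp8, Ngp and Ltf, and not in those of Camp, Mpo, Elane, Pglyrp1 and Cd177. It occurs in 10.8% of 32851 promoters of this length. Stretches of 150 bases that hold the matches are shown 5′ to 3′ on the strand of the gene, with the matches in capitals, because Lcn2 and Mmp8 rose at 8 Gy and Ngp and Ltf did not pass, while all 4 hold a match. They lie at chr2:32387840-32387989 (Lcn2, minus strand), chr9:7558279-7558428 (Mmp8, plus strand), chr9:110419658-110419807 (Ngp, plus strand) and chr9:111019142-111019291 (Ltf, plus strand).
Lcn2: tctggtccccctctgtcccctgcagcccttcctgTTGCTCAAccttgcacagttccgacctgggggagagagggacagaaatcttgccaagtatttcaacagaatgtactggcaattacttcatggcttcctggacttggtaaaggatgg
Mmp8: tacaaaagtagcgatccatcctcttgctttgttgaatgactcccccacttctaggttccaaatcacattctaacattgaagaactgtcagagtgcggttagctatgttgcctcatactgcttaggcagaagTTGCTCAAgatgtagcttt
Ngp: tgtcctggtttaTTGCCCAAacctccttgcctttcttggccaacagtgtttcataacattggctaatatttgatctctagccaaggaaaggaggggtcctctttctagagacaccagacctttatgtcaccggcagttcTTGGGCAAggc
Ltf: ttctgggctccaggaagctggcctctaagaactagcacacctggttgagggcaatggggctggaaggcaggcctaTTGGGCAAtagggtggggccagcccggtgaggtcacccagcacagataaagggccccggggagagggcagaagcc

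Lcn2 and Mmp8 hold the same 8 letters, TTGCTCAA, at positions -216 to -209 and -19 to -12 from the start. The match in Ltf and the one nearer the start in Ngp both read TTGGGCAA. An ETS motif, AGAGGAA, was in the promoters of Mpo and Pglyrp1 and in 10.4% of all promoters, and an NF-kB motif, GGGA and CC with 4 bases of any kind between, in those of Camp and Pglyrp1 and in 20.7% of all. Among the genes searched, which leave out Mmp9, none of the 3 motifs separated those that rose from those that did not. A match is a run of letters and not a measured binding site.

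**Figure D4:**
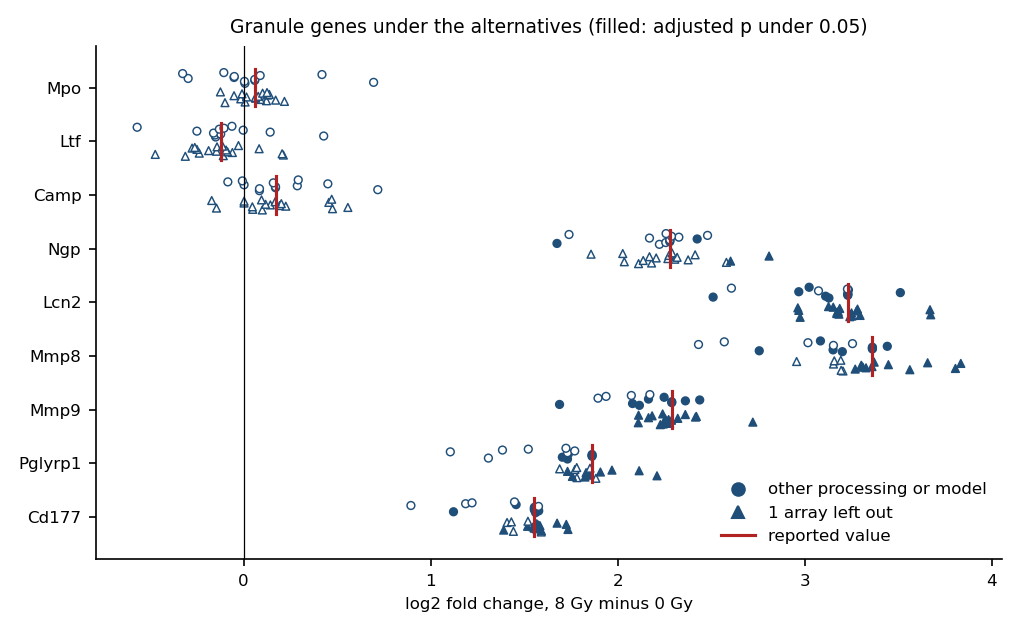
Log2 fold change of each tested granule gene at 8 Gy against 0 Gy (horizontal axis) under the other processing choices and models (circles) and with 1 array left out (triangles), filled where the adjusted p is under 0.05, with a red line at the reported value. Lcn2, Mmp8, Mmp9, Ngp, Pglyrp1 and Cd177 stay above 0 in every one, and Mpo, Ltf and Camp lie on both sides of 0 and are never filled.

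Across 31 alternatives, the change of Lcn2 at 8 Gy passed in 28 and that of Mmp9 in 27, and both passed whichever of the 18 arrays was left out. Cd177 passed in 21, Mmp8 in 20, Pglyrp1 in 18 and Ngp in 4. Those of Mpo, Ltf and Camp passed in none of 30. The 5 genes called fell to 2, Lcn2 and Mmp9, when any of 0 Gy replicates 1 and 2 or 8 Gy replicates 4, 5 and 6 was left out. Of all genes, 1593 were called with every array, and between 263 (without 0 Gy replicate 1) and 2979 (without 0 Gy replicate 5) with 1 left out.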

How the data were processed

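The scanner files hold several intensities per spot. The processed signal was used here, and per the file headers it was background-subtracted and detrended in Feature Extraction 9.5.3.1 from Agilent. Only the normexp alternative started from the mean and background signals. The deposited table of the series also holds intensity values (median 20.7 per array), used as an alternative; its steps are not given in the sources used here. The submitters' processing notes also name limma.

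Signals of 43379 non-control spots were divided by the array's 75th percentile over those spots, taken to log2 and averaged by probe. Of all values, 45 with outlier marks were left out. The 22035 probes read well above background by 5 or more of the 18 arrays were kept, and the probe with the highest mean stood for its gene. Old symbols were updated through RefSeq accessions. limma 3.58.1 in R 4.3.3 was fitted to all arrays with dose and kit as terms, 2-sided. Each mouse is a separate biological sample. Single differences were tested by exact permutation over arrays.

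The genes named were the 10 granule genes, in every list the 4 genes of lowest p or fewer, and the 3 genes most like Mpo, Ltf and Mmp9 (those for Mpo are not reported here). Ltf pairs within the secondary class (no test), Cdkn1a and Itgb2 were added after values were seen. Members and lists were chosen with earlier results of these data known. Alternatives covered background correction, normalization, the filter, the probe rule, kit, slide, scan day, brightness, the replicate number and each array left out. The model was tested on simulated data.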

Additional observations from a re-analysis of the deposited data

Results flagged for a closer look

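In 2 of 30 groups of arrays (10 genes at 3 doses), 1 array stood far from the rest by Dixon's test at the 95% level, a test that picks out about 1 group in 20 by chance alone. Mmp9 in 0 Gy replicate 5 read 4.19 where the next highest 0 Gy array read 2.16. Pglyrp1 in the same array read 3.29 where the next highest read 1.83. That array was also the highest 0 Gy array for Lcn2, Mmp8 and Cd177, for Cdkn1a and for the summed markers of mature neutrophils, and the lowest for the summed markers of B cells.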

How the results depend on the processing

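The rises of Lcn2, Mmp8, Mmp9, Pglyrp1 and Cd177 at 8 Gy, and the difference of Ngp, kept their direction under every alternative, and their calls did not. The number of granule genes called at 8 Gy, 5 as reported, was 2 on RiboPure arrays alone, 3 with the slide as a random block and 0 with the slide, the scan day or the brightness of the array as a term. It was 2 to 6 with 1 array left out, 2 without 0 Gy replicate 1 or 2 or 8 Gy replicate 4, 5 or 6. Of all genes at 8 Gy, 566 were called with no filter on dim probes (more genes tested), 270 on RiboPure arrays, 582 with the slide as a random block, 0 with the slide (1173 with an unadjusted p under 0.05 in limma), the scan day (2481) or the brightness (1837), and 263 to 2979 with 1 array left out. Single arrays whose absence moved this count by over 1.5 times were, in the sham-treated group, replicate 1 (263), 2 (324), 3 (855), 4 (818), 5 (2979), 6 (966) and 7 (775), in the 2 Gy group replicate 1 (884) and 5 (599), and in the 8 Gy group replicate 1 (2860), 2 (610), 3 (564), 4 (367), 5 (473) and 6 (381). At 2 Gy, 0 granule genes were called as reported and 0 to 2 with 1 array left out (2 without 0 Gy replicate 5), and of all genes 40 were called with quantile normalization, 55 with normexp, 65 with probes well above background on all arrays of a dose, 0 with no filter (5682 unadjusted), on RiboPure arrays (1620) or with the slide (1823), the scan day (1889) or the brightness (841), and 0 to 867 with 1 array left out. That count, 7 as reported, was 867 without replicate 5 of the sham-treated group, 209 with replicate 3 of the 2 Gy mice left out, and 158 with replicate 1 of the 8 Gy mice left out. Only 3 or 4 genes passed without 8 Gy replicate 4, 5 or 6, and none without 8 Gy replicate 3, any 2 Gy replicate but 3, or any sham-treated replicate but 4 and 5.

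The labels give no shared source for equal replicate numbers. Deviations of same-numbered arrays correlated between -0.35 and 0.48, above 0.1 in 8 of 16 pairs. With the replicate number as a block, 2 granule genes (Lcn2 and Mmp8) and 244 of all genes were called at 8 Gy and 73 at 2 Gy, and Mpo at 8 Gy was -0.11 and Camp at 2 Gy -0.10.

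Changes near 0 that missed the threshold turned sign. At 8 Gy, Mpo was -0.30 without the kit term, -0.051 on RiboPure arrays, -0.049 with the slide, -0.33 with brightness and -0.12 to 0.22 with 1 array left out. Ltf was 0.43 with normexp, 0.14 without the kit term and -0.47 to 0.21 with 1 array left out. Camp was -0.084 with scan day, -0.0063 with brightness and -0.17 to 0.56 with 1 array left out. Cyba was -0.17 with normexp, -0.25 with the slide and -0.10 with scan day, and Lyz2 was -0.16 with quantile normalization and -0.16 with the deposited values. At 2 Gy, Camp was -0.015 with quantile normalization, -0.012 with the deposited values, -0.29 on RiboPure arrays, -0.075 with brightness and -0.29 to 0.48 with 1 array left out. Ltf was -0.23 on RiboPure arrays, -0.35 with brightness and -0.25 to 0.54 with 1 array left out.

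Of the differences between genes, those at 8 Gy with normexp were 1.28 for Mmp9 minus Mpo, 1.32 for Mmp9 minus Ltf and -0.038 for Ltf minus Mpo, and the last was -0.20 on RiboPure arrays. At 2 Gy, Mmp9 minus Ltf lost its call in the exact permutation test with quantile normalization (1.43), normexp (1.00), the deposited values (1.40) and on RiboPure arrays (1.49). With 1 array left out it ran from 1.17 to 1.76 (exact permutation adjusted p up to 0.139; lost without any sham-treated replicate but 6 or any 2 Gy replicate but 1), Mmp9 minus Mpo from 0.98 to 1.65 (called without 0 Gy replicate 5) and Ltf minus Mpo from -0.69 to 0.28, and at 8 Gy Ltf minus Mpo ran from -0.12 to 0.72. The differences from Ltf within the secondary class carry no test. At 2 Gy they were 1.64 for Lcn2 and 1.62 for Mmp8 on RiboPure arrays, and 0.0039 with normexp and 0.028 with the mean over probes for Camp. With 1 array left out they ran from 1.69 to 2.27 for Lcn2, from 1.34 to 2.08 for Mmp8 and from -0.17 to 0.13 for Camp at 2 Gy, and from -0.18 to 0.35 for Camp at 8 Gy. The cause of these shifts was not tested. Mpo, Ltf and Camp were above background on 10 to 13 of 18 arrays, which limits what their changes can show, and 5 to 7 mice per dose limit the rest.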
